A study of Gallus gallus with 12 samples.

Results

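AMP-activated protein kinase (AMPK) and the enzymes that build and break glycogen were examined in the breast muscle of broilers with and without a muscle disorder. The genes were 10 listed ones, each represented by the brightest transcript cluster that carries its symbol alone, and 7 of the 10 were measured among 11528 genes: the AMPK subunits PRKAA2, PRKAB2 and PRKAG3, and the glycogen genes PGM2L1, PYGL, PHKA1 and PPP1CB. PRKAA1, PRKAG2 and GBE1 were not analysed here. The cluster of a gene was chosen by its mean over all arrays, and the list was drawn up with group differences in these birds already known. The differences and p-values below therefore describe these genes, and their number past the test supports nothing.

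AMPK is a kinase of a catalytic alpha, a scaffolding beta and a nucleotide-binding gamma subunit that senses a falling energy charge in the cell. Its beta subunits carry a module that binds glycogen, and in pigs a variant of PRKAG3 is known for muscle with a very high glycogen store. Glycogen is broken down by phosphorylase, which phosphorylase kinase activates and protein phosphatase 1 turns off again, while the same phosphatase activates glycogen synthase.

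The tissue was Pectoralis major, taken after slaughter from Ross 708 birds, a commercial chicken hybrid bred for meat, all labelled male, from 1 flock that averaged 3.7 kg. The groups were 6 birds with white striping and wooden breast, seen at slaughter as white lines and a hardened fillet, and 6 birds with normal fillets, so n = 6 per group unless stated. Each bird gave 1 array and each value is a log2 level of RNA in the whole tissue, in which fewer cells of a type and less RNA per cell cannot be told apart. The sample titles carry numbers from 11 to 20 for affected and from 1 to 10 for normal birds, so that any effect of that order and the phenotype cannot be told apart.

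Although all birds are labelled male, normal birds 1, 4 and 5 gave HINTW, a transcript of the female W chromosome, at 8.51, 9.41 and 9.27, against at most 2.99 on the other 9 arrays. The differences of the 7 genes are therefore given with and without these 3 arrays. None of the 7 genes lies on the Z or W chromosome in assembly GRCg7b. The tissue label was borne out by ACTA1 of skeletal muscle and by TNNT3, TNNI2 and TNNC2 of fast muscle, with group means from 11.2 to 12.6. PVALB, a calcium buffer of fast fibres, averaged 5.19 in affected and 4.36 in normal muscle. Over all 20804 clusters 238 passed an adjusted p of 0.05 in limma's fit, which is 1.14%, with 0.63% higher and 0.514% lower in affected muscle, that is 131 and 107 clusters (225 and 117 with each array centred on its median). Groups of birds did not overlap at 2.17% of clusters, with all affected birds above all normal birds at 1.06% and below them at 1.11%. Without the 3 arrays 0.0144% passed, and 17.7% had an unadjusted p under 0.05.

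PPP1CB, a catalytic subunit of protein phosphatase 1, was the 1 gene of the 7 that passed, and it rose 1.40-fold in affected muscle. PRKAG3 and PRKAB2, the gamma and beta AMPK subunits typical of skeletal muscle, and PGM2L1, a synthase of glucose bisphosphate, had lower means in affected muscle without passing the test. PRKAA2, the catalytic alpha subunit, PYGL, a glycogen phosphorylase, and PHKA1, a phosphorylase kinase subunit, had differences whose intervals with all birds include 0. Of the 7 genes 4 had an unadjusted p under 0.05 in limma's fit. That mark was reached by 22.1% of all clusters and by 23.2% of all 11528 genes, each by its brightest cluster. On the log2 scale the median difference was -0.43 over the 7 genes, -0.03 over all clusters and 0.0027 over all genes. The 7 were listed with group differences known, so these contrasts are descriptions.

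**Figure D1:**
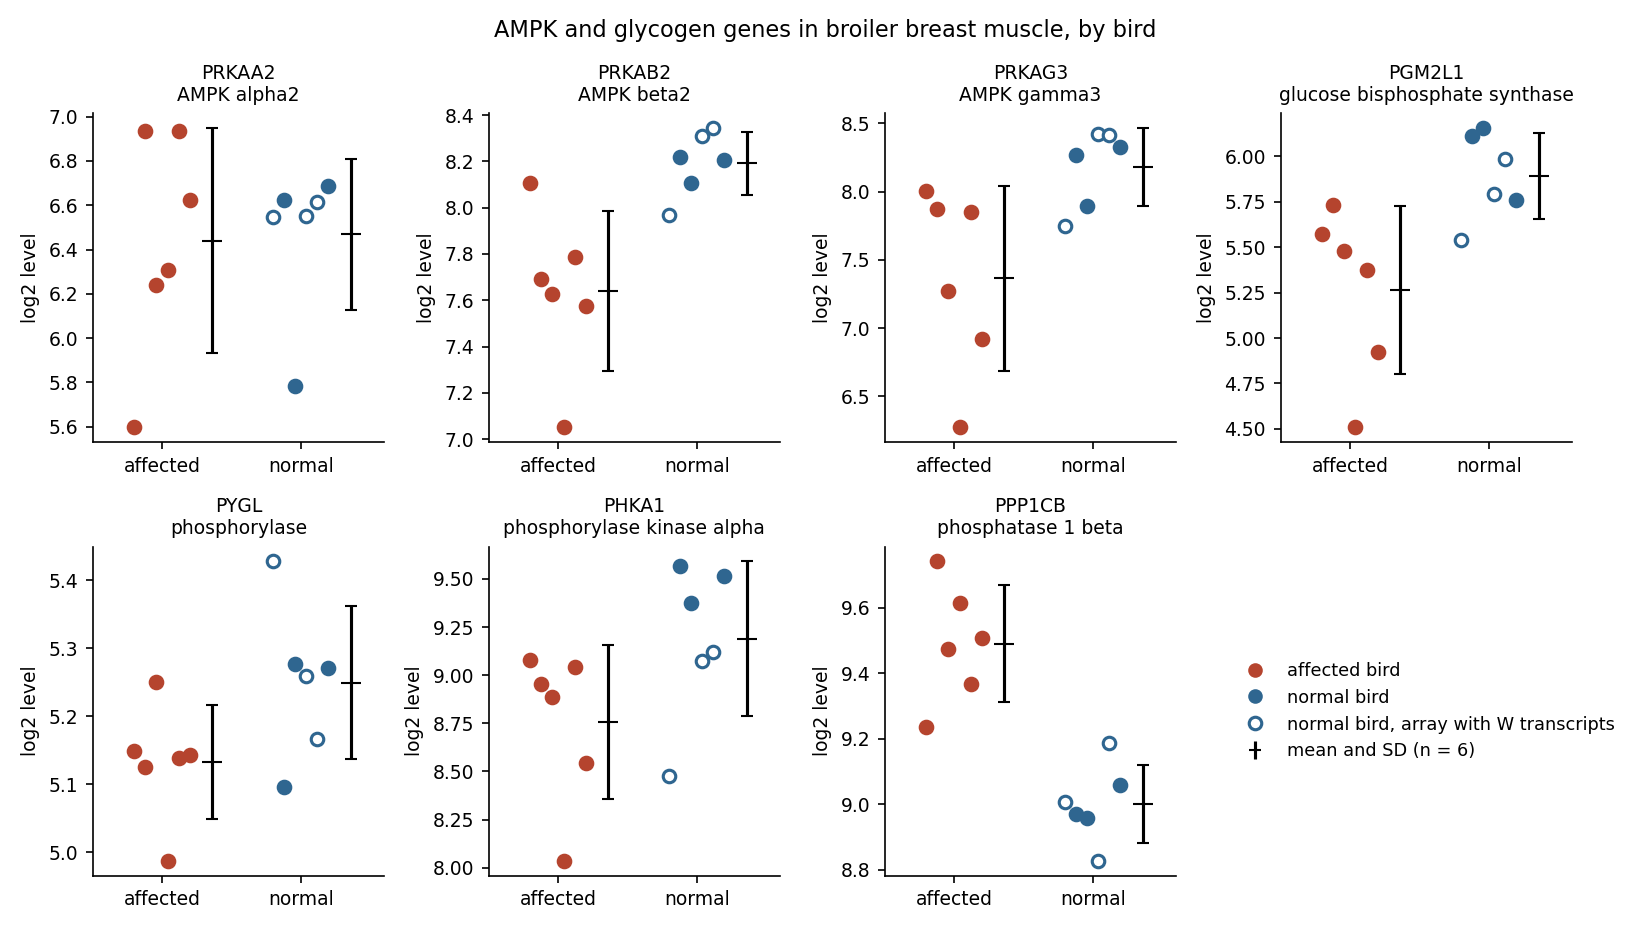
Log2 level of each of the 7 genes (vertical axes, each with its own range) in the 6 affected birds and the 6 normal birds, 1 point per bird, with the mean and SD of each group; open points are the 3 normal arrays with W transcripts. PPP1CB is the gene whose groups are fully apart, with every affected bird at 9.24 or above and every normal bird at 9.19 or below.

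Among the AMPK subunits, PRKAG3 ran from 6.27 through a median of 7.56 to 8.003 in affected muscle, against 7.75, 8.29 and 8.42 in normal muscle. Affected birds 3, 4 and 6 lay below every normal bird, and affected birds 1, 2 and 5 lay within the normal range. The mean difference was -0.81 ± 0.27 (log2, SE), a level 0.569 of normal, with a 95% interval from -1.38 to -0.24 and an adjusted p of 0.108 in limma's fit. Without the 3 arrays with W transcripts it was -0.80 (adjusted p = 0.268 in limma's fit). The exact two-sided permutation p, which is not adjusted over the table, was 0.0173. Affected birds also varied more among themselves than normal birds in PRKAG3, with an SD of 0.68 in affected and 0.29 in normal muscle, a difference in spread that was not tested.

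PRKAB2 stood at 7.05, 7.66 and 8.11 (lowest, median and highest) in affected muscle, against 7.97, 8.21 and 8.34 in normal muscle. Affected bird 1 was the 1 affected bird within the normal range, and the other 5 lay below every normal bird. The difference was -0.55 ± 0.14 (log2, SE), a level 0.682 of normal, with an interval from -0.86 to -0.25 and an adjusted p of 0.0645 in limma's fit. It was -0.54 without the 3 arrays (adjusted p = 0.189 in limma's fit). Of the fits that left out 1 bird only 1 passed, at -0.65 and an adjusted p of 0.0300 without affected bird 1. Without affected bird 4 the difference was -0.43 (adjusted p = 0.101 in limma's fit), and adjusted p-values of these fits reached 0.126. The exact permutation p with all birds was 0.00433. The gene has a second, dimmer cluster, which averaged 5.78 ± 0.35 (SD) in affected and 5.90 ± 0.27 in normal muscle. That cluster differed by -0.12 (adjusted p = 0.699 in limma's fit), so the 2 clusters disagreed in size, and the mean of both differed by -0.34 (exact permutation p = 0.0325).

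PRKAA2, the alpha subunit of the same muscle complex, gave 5.60, 6.47 and 6.94 (lowest, median and highest) in affected muscle, against 5.78, 6.58 and 6.69 in normal muscle. The groups overlapped almost wholly, with affected bird 1 and normal bird 3 as the low birds of their groups. The difference was -0.03 ± 0.22 (log2, SE; adjusted p = 0.955 in limma's fit), and its interval from -0.51 to 0.45 allows a change of either sign. Its sign turned to 0.08 without the 3 arrays with W transcripts.

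PRKAB1, the other beta subunit, averaged 4.57 ± 0.15 in affected and 4.41 ± 0.29 in normal muscle, a log2 difference of 0.16 (adjusted p = 0.485 in limma's fit), or 0.28 without the 3 arrays. Within each bird, the log2 difference of PRKAB2 minus PRKAB1 was 3.07 ± 0.45 (SD) in affected and 3.78 ± 0.21 in normal muscle. The within-bird value differed between the groups by -0.71, and by -0.82 without the 3 arrays. The affected range was 2.33 to 3.63 and the normal range 3.51 to 4.13, with affected bird 1 above the lowest normal bird. The pair is given as a description with no test, since PRKAB2, which alone differed by -0.55, was listed with its difference known. The dimmer second cluster of PRKAB2 was not used in the pair.

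**Figure D2:**
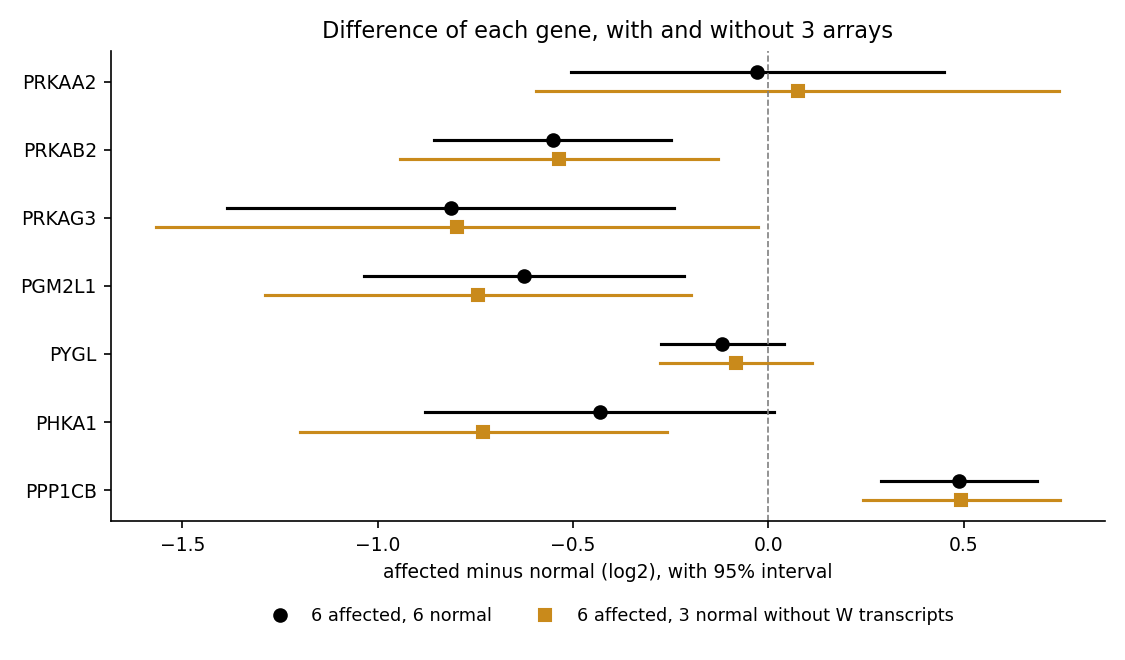
Affected minus normal log2 difference (horizontal axis) of each gene with its 95% interval, from 6 against 6 birds (circles) and from 6 affected against the 3 normal birds without W transcripts (squares). The intervals of PRKAB2, PRKAG3, PGM2L1 and PPP1CB leave out 0 in both fits, that of PHKA1 does so without the 3 arrays, and an interval for 1 gene takes no account of the 20804 clusters tested.

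Among the glycogen genes, PGM2L1 ran from 4.51 through 5.43 to 5.73 in affected muscle, against 5.54, 5.89 and 6.16 in normal muscle. Affected birds 3 to 6 lay below every normal bird, and affected birds 1 and 2 lay just above normal bird 1, the lowest of its group. The difference was -0.62 ± 0.19 (log2, SE), a level 0.649 of normal, with an interval from -1.03 to -0.21 and an adjusted p of 0.0942 in limma's fit. Without the 3 arrays it was -0.74 (adjusted p = 0.177 in limma's fit), and the exact permutation p with all birds was 0.00866.

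With all birds, PHKA1 and PYGL of glycogen breakdown differed less between the groups than PGM2L1. PHKA1, the regulatory alpha subunit of muscle phosphorylase kinase, stood at 8.04, 8.92 and 9.08 (lowest, median and highest) in affected muscle, against 8.48, 9.25 and 9.57 in normal muscle. All 6 affected birds were below the normal mean, but normal bird 1, at 8.48, was lower than every affected bird except bird 4. The difference was -0.43 ± 0.21 (log2, SE; interval -0.88 to 0.02, adjusted p = 0.241 in limma's fit). It was larger, at -0.73 (interval -1.20 to -0.26, adjusted p = 0.148 in limma's fit), without the 3 arrays with W transcripts, which include normal bird 1. PGM2L1 was at -0.74 without the same arrays, so PHKA1 did not differ clearly less there.

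PYGL, the phosphorylase named for liver, had 4.99, 5.14 and 5.25 in affected muscle, against 5.10, 5.27 and 5.43 in normal muscle. Its groups overlapped, and the difference was -0.12 ± 0.07 (log2, SE; interval -0.27 to 0.04, adjusted p = 0.356 in limma's fit), or -0.08 without the 3 arrays (adjusted p = 0.653 in limma's fit). The interval leaves out differences as large as the mean ones of PGM2L1 and PRKAG3. A cluster shared by PYGL and ABHD12B differed by 0.04 (adjusted p = 0.860 in limma's fit).

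PPP1CB, which turns phosphorylase off and glycogen synthase on when a targeting subunit brings it to glycogen, ran from 9.24 through 9.49 to 9.74 in affected muscle, against 8.83, 8.99 and 9.19 in normal muscle. All 6 affected birds lay above all 6 normal birds, a pattern that 1.06% of all clusters showed. It rose by 0.49 ± 0.09 (log2, SE; interval 0.29 to 0.69, adjusted p = 0.0379 in limma's fit), and the exact permutation p of 0.00216 is the smallest that 924 arrangements allow. Without the 3 arrays the difference was also 0.49 but no longer passed (adjusted p = 0.114 in limma's fit). The call was lost in 8 of the 12 fits that leave out 1 bird, at differences from 0.44 to 0.49. Leaving out affected bird 2, 3, 4 or 6 gave adjusted p-values of 0.0720, 0.0741, 0.0788 and 0.0930 in limma's fit, and leaving out normal bird 1, 2, 3 or 4 gave 0.0640, 0.0600, 0.0680 and 0.0789.

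Set within each bird, the log2 difference of PPP1CB minus PHKA1 was 0.73 ± 0.51 (SD) in affected and -0.19 ± 0.42 in normal muscle. The means were 0.92 apart, or 1.22 without the 3 arrays, which is given as a description with no test, since both genes were listed with their differences known. Affected birds ranged from 0.16 to 1.58 and normal birds from -0.60 to 0.53, so the groups overlapped. Affected birds 1 and 5 and normal bird 1 made up the overlap.

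**Figure D3:**
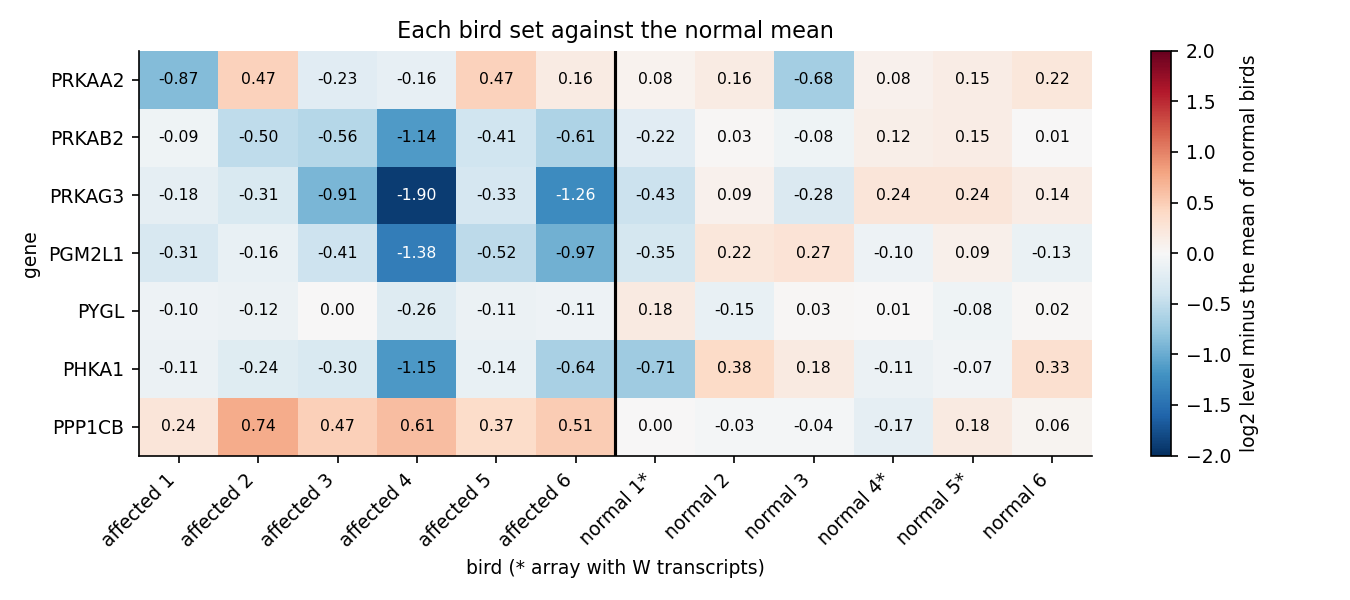
Log2 level of each gene (rows) in each bird (columns, affected birds left of the line) minus the mean of the 6 normal birds; asterisks mark the normal arrays with W transcripts. Affected bird 4 is lowest of all 12 in 5 of the 7 genes, down to -1.90 in PRKAG3, affected bird 6 follows at -1.26 in that gene, and affected bird 1 stays within -0.31 of the normal mean in PRKAB2, PRKAG3, PGM2L1, PYGL and PHKA1.

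The affected birds were not alike. Affected bird 4 was the lowest of all 12 in PRKAB2, PRKAG3, PGM2L1, PYGL and PHKA1, and affected bird 6 was the next lowest in PRKAG3 and PGM2L1. In affected bird 1 the same genes lay close to normal, while its PRKAA2 was the lowest of all birds, at 5.60. In PPP1CB, which was higher in affected muscle, affected bird 2 was highest at 9.74 and so broke this order. Affected birds 4 and 6 came next there, at 9.61 and 9.51, and affected bird 1 was the affected bird nearest to normal, at 9.24. A relation of PPP1CB with the other genes was not detected in the correlations below. Among limma's array weights, which are lower for arrays that scatter more around their group, the lowest were normal bird 1 (0.57) and affected bird 4 (0.72). The part of array quality in the values of these birds was not tested.

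The means of some marker lists were highest in affected birds 4 and 6. Those of endothelial and satellite cell markers differed between the groups by -0.06 and -0.003. Adipocyte, erythroid, lymphocyte and smooth muscle means differed by 0.47, 0.26, 0.14 and 0.15, unevenly within each list. Of adipocyte markers, LPL and CD36 differed by 0.93 and 0.88, PPARG by 0.44, ADIPOQ by 0.11 and PLIN1 by -0.02. HBAD, HBA1 and HBZ of the erythroid list differed by 0.64, 0.29 and -0.15. Among lymphocyte markers PTPRC differed by 0.76, CD3D and CD3E by 0.20 each, and CD4, CD8A and CD79B by -0.06, -0.09 and -0.17. In smooth muscle, PDGFRB differed by 0.50, and MYH11, RGS5 and TAGLN by 0.06, 0.04 and 0.02. Affected bird 1, though near normal in 5 of the 7 genes, was above every normal bird in fibroblast (8.65) and slow fibre (7.67) means. The mean of 5 measured fibroblast and mesenchymal markers (PDGFRA, COL1A1, COL1A2, LUM and THY1, all 5 higher in affected muscle) ran from 8.12 to 9.66 in affected and from 6.15 to 8.44 in normal birds. It was highest in affected birds 4 and 6, at 9.66 and 9.33, and lowest in normal bird 2. The mean of 7 slow fibre markers ran from 7.35 to 8.96 in affected and from 6.06 to 7.30 in normal birds, again highest in affected birds 4 and 6, at 8.96 and 8.32. Of those 7, 2 passed the test, CSRP3 and MB, both higher (log2 differences of 3.30 and 2.37, the largest of the list), against 1.14% of all clusters called. TNNI1, MYL3 and ATP2A2 had higher means and TNNC1 and CASQ2 lower means in affected muscle (log2 differences of -0.33 and -0.01 for the lower ones), without passing. TNNC1 and CASQ2 averaged 11.6 and 11.3 in normal muscle, beside 11.4 for TNNI2 of fast muscle. The mean of the 7 is therefore not a measure of slow fibres alone. The mean of 4 macrophage markers ran from 5.06 to 6.36 in affected and from 4.69 to 5.49 in normal birds. The mean of 5 markers listed for fast muscle, ACTA1 among them, ran from 10.04 to 10.88 in affected and from 10.24 to 10.52 in normal birds. Affected bird 4 was the lowest. Its spread among affected birds is mostly that of PVALB, which ran from 3.41 to 7.09 with an SD of 1.25. The SDs of ACTA1, TNNT3, TNNI2 and TNNC2 in affected muscle were at most 0.12. The part of these cell types in the differences was not tested.

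Deviations of birds from the mean of their own group were examined in 24 relations. These were all 21 pairs of the 7 genes, and the 3 pairs among PHKA1, PHKB and PHKG1, the alpha, beta and catalytic gamma subunits of phosphorylase kinase. The relations were not among the planned tests. Taking out the group means does not take out unequal differences among affected birds, of which bird 4 was lowest in 5 of the 7 genes. Since the 7 genes were listed with group differences known, the p-values of these relations are descriptions. PRKAB2 and PRKAG3 varied together, with Pearson's r = 0.92 (permutation p = 3e-05, adjusted p = 0.0004 over the 24) and Spearman's rho = 0.91 (permutation p = 0.00018, adjusted p = 0.00216) over deviations of 12 birds from their group means. The relation held at r = 0.91 among affected birds, at 0.96 among normal birds, at 0.91 on the 9 arrays lacking W transcripts and at 0.85 without affected birds 1 and 4, the farthest from the median of PRKAB2. Over all birds no relation with PRKAA2 was detected, with r = -0.13 against PRKAB2 (permutation p = 0.767) and 0.13 against PRKAG3 (permutation p = 0.744). In the same order, r was 0.34 and 0.54 among normal birds and -0.26 and 0.02 among affected birds. Without the 2 birds farthest from the median of PRKAB2 or of PRKAG3, r was 0.44 and 0.17. A high or low PRKAB2 thus went with a high or low PRKAG3 in both groups of birds, with no such relation detected for PRKAA2.

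The phosphorylase kinase subunits also varied together. PHKA1 gave r = 0.96 with PHKG1 and 0.94 with PHKB (adjusted permutation p = 0.0004 for each), with rho = 0.87 and 0.94 and adjusted permutation p = 0.00704 and 0.00048. Without affected bird 4 and normal bird 1, the 2 farthest from the median of PHKA1, r was 0.86 and 0.90. PHKB and PHKG1 themselves gave r = 0.86 (adjusted permutation p = 0.00312), or 0.66 without those 2 birds. PHKB averaged 9.58 ± 0.48 (SD) in affected and 9.80 ± 0.36 in normal muscle, a log2 difference of -0.22 (adjusted p = 0.569 in limma's fit). PHKG1 averaged 9.24 ± 0.37 in affected and 9.53 ± 0.31 in normal muscle, a difference of -0.28 (adjusted p = 0.367 in limma's fit). Both differed by -0.48 without the 3 arrays with W transcripts. PHKB and PHKG1 were named after their values were seen. The adjusted permutation p-values of the 3 relations among these subunits do not cover that choice, so the relations are descriptions.

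Across the complexes, PHKA1 went with PGM2L1 (r = 0.83), PRKAG3 (0.77) and PRKAB2 (0.73), and PRKAG3 with PGM2L1 (0.80), at adjusted permutation p = 0.0101, 0.0207, 0.0284 and 0.0316. These 4 rest largely on the extreme birds: without the 2 farthest birds r fell to 0.58, 0.57, 0.56 and 0.50, and by Spearman's rho the adjusted permutation p was 0.108, 0.153, 0.272 and 0.158. In the same order, r was 0.94, 0.97, 0.92 and 0.93 among affected birds, 0.73, 0.51, 0.48 and 0.22 among normal birds, and 0.87, 0.96, 0.92 and 0.83 on the 9 arrays lacking W transcripts. The other pairs of the 7 genes, 16 of 21, did not pass, PPP1CB being in none that passed. All values of a bird come from 1 array, so these relations share whatever differs between arrays.

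**Figure D4:**
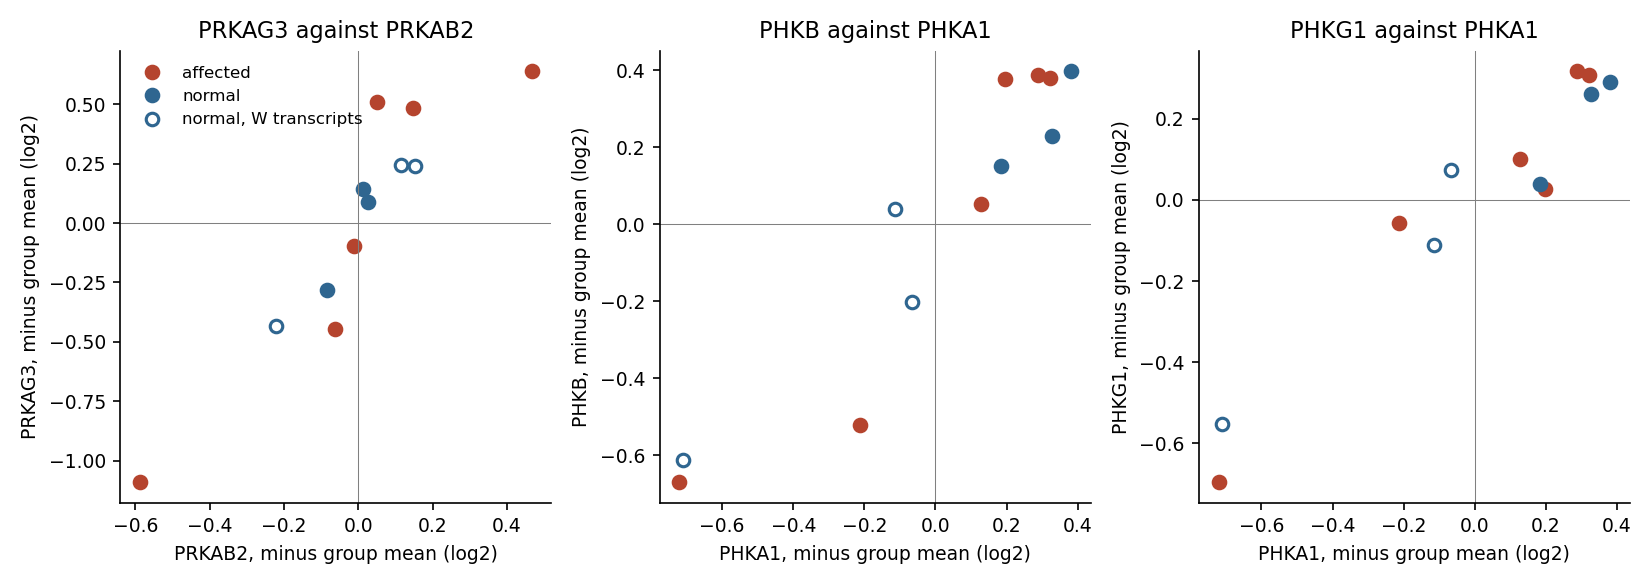
Log2 level minus the mean of the bird's own group, for PRKAG3 against PRKAB2 (left) and for PHKB and PHKG1 against PHKA1 (middle and right), 1 point per bird; open points are the normal arrays with W transcripts. Over the birds of both groups r is 0.92, 0.94 and 0.96 from left to right. Taking out each group's mean centres both groups on the same point, so their shared position is no result.

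The genes whose deviations from the group means were most like each of 3 members were taken from 11193 named genes, and since they are the highest of so many their correlations are descriptions over 12 arrays, with no test. For PRKAG3 these were PGK2 (r = 0.94), a phosphoglycerate kinase, GPD1 (0.93), a glycerol phosphate dehydrogenase, and SLC37A4 (0.92), a glucose phosphate transporter. For PRKAB2 they were DNAJC18 (0.95), SLC45A2 (0.94) and FAM168A (0.93). For PPP1CB they were XCL1 (0.96), AKAP11 (0.92) and CALCOCO2 (0.91). SLC45A2 and XCL1 had mean levels of 3.25 and 2.66, near the 2.99 of HINTW in birds lacking the W transcripts. None of the 9 genes passed the test between groups, SLC37A4 coming nearest with a log2 difference of -0.66 (adjusted p = 0.0583 in limma's fit).

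Of the other genes of these pathways, 102 were listed and 61 measured. None passed in limma's fit, and 9 had an unadjusted p under 0.05, which is 14.8% of them, against 23.2% of all 11528 genes. Their differences were positive in 41 and negative in 20, with a median of 0.05, against 5838 positive and 5690 negative with a median of 0.0027 over all genes. Without the 3 arrays with W transcripts 33 of the 61 were positive. The lists were drawn up with earlier results known.

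Of 14 measured genes in the list upstream of AMPK, 13 had a positive log2 difference, with a median of 0.18. Without the 3 arrays with W transcripts 9 did. The list mixes kinases and their partners with the phosphatases PPM1A, PPM1E and PPP2CA, so the count gives no direction of AMPK activity. CAB39L, a scaffold of the LKB1 kinase complex, averaged 5.63 ± 0.24 (SD) in affected and 4.91 ± 0.46 in normal muscle, with a difference of 0.72 (adjusted p = 0.0708 in limma's fit). Among 12 measured substrates and downstream genes, 7 were positive, and TSC2, a brake on growth signalling that AMPK phosphorylates, differed by 0.31 (adjusted p = 0.178 in limma's fit). Of 8 related kinases NUAK1 had the smallest p, averaging 6.91 ± 0.26 in affected and 6.38 ± 0.30 in normal muscle (difference 0.52, adjusted p = 0.0818 in limma's fit).

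None of the 6 measured genes of glycogen synthesis other than PGM2L1 passed, and all 6 had positive differences, with a median of 0.04 (5 were positive without the 3 arrays). GYG1, the primer protein of glycogen, and UGP2, which makes UDP-glucose, were named after their values were seen. They differed by 0.05 and 0.24 (adjusted p = 0.743 and 0.368 in limma's fit), and UGP2 by 0.04 without the 3 arrays with W transcripts. GYS2, a glycogen synthase named for liver and chosen in the same way, averaged 2.32 in affected and 2.28 in normal muscle, below the 2.99 of HINTW in birds lacking the W transcripts. In glycogen breakdown 4 of the 5 measured genes besides PHKA1 and PYGL were negative, with a median of -0.22. PHKA2, named for being the exception, was at 0.38 (0.64 without the 3 arrays; adjusted p with all birds = 0.251 in limma's fit). Its means of 3.56 in affected and 3.18 in normal muscle were not far above that 2.99 of HINTW. Affected bird 4 stood apart in PHKA2 at 4.28, against 3.27 to 3.59 in the other affected birds. CALM2, a calmodulin gene whose protein is also the delta subunit of phosphorylase kinase, averaged 9.49 ± 0.33 in affected and 9.93 ± 0.14 in normal muscle (difference -0.44, adjusted p = 0.102 in limma's fit). Without affected bird 5 CALM2 passed, at -0.56 and an adjusted p of 0.0391.

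Of the partners that direct PPP1CB none passed the test, and their differences had both signs. Of the 4 measured subunits that bring the phosphatase to glycogen, PPP1R3A and PPP1R3C differed by -0.28 and -0.45 (adjusted p = 0.259 and 0.307 in limma's fit), with PPP1R3A at -0.45 without the 3 arrays and a second cluster of PPP1R3C at -0.70 (adjusted p = 0.107 in limma's fit). PPP1R3B averaged 3.80 ± 0.19 (SD) in affected and 3.50 ± 0.33 in normal muscle, a difference of 0.29 (adjusted p = 0.248 in limma's fit), or 0.47 without the 3 arrays. PPP1R3D differed by -0.01 (adjusted p = 0.982 in limma's fit), or -0.24 without the 3 arrays, and its sign turned to 0.0084 with arrays centred on their median. PPP1R12A and PPP1R12B, which bring it to myosin, differed by 0.04 and 0.12 (adjusted p = 0.803 and 0.615 in limma's fit). PPP1R12A turned to -0.01 after quantile normalization, and PPP1R12B to -0.02 without the 3 arrays with W transcripts. GSK3A, a kinase that inhibits glycogen synthase, differed by 0.31 (adjusted p = 0.113 in limma's fit). PRKAR1A, a regulatory subunit of cyclic AMP dependent kinase, differed by 0.16 (adjusted p = 0.220 in limma's fit) and had the smallest p of the 6 genes measured there. Of these, PPP1R3A, PPP1R3B, PPP1R3C, PPP1R3D, PPP1R12A and GSK3A were named after their values were seen.

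**Figure D5:**
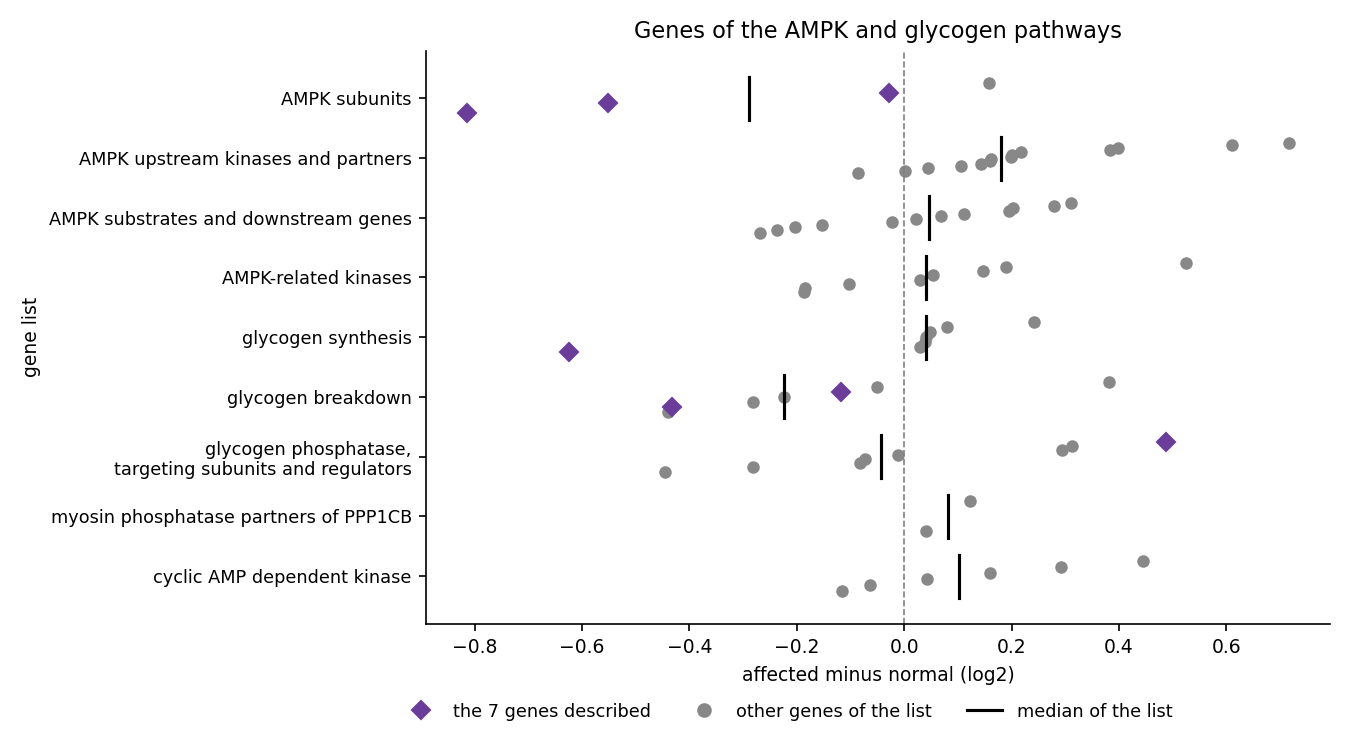
Affected minus normal log2 difference (horizontal axis) of each measured gene in 9 lists (rows), with diamonds for the 7 genes described first, circles for the others and a line at each list's median. The AMPK subunits and the breakdown list have medians of -0.29 and -0.22, the upstream list has 0.18, and PPP1CB, at 0.49, is the highest of its list. The AMPK subunits median rests on PRKAA2, PRKAB2 and PRKAG3, listed with group differences known. Without them that list holds only PRKAB1, at 0.16.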

How the data were processed

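Breast muscle RNA of 12 birds was labelled from 150 ng and hybridised to Affymetrix whole-transcript arrays, 1 for each bird, per the labels' protocols. Partek is named in the submitters' processing notes, with no version. How background was corrected and probes summarized, and the build, were not given in the sources used here. Values as deposited by the authors were read as log2 levels per transcript cluster, the base being inferred from their range of 1.04 to 12.9. Clusters took symbols from the platform annotation, checked by Entrez ID against RefSeq genes of GRCg7b (11727 of 12300 single-symbol clusters matched, with 0 symbols changed), and a gene was represented by its brightest single-symbol cluster.

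Groups came from the phenotype label, and replicate numbers follow the order of deposition. R 4.3.3 with limma 3.58.1 (lmFit, then eBayes) fitted differences over all 20804 clusters and adjusted by the Benjamini-Hochberg method at a threshold of 0.05. Standard errors and 95% intervals are limma's moderated ones. Exact tests enumerate all arrangements of birds, and correlations used 100000 permutations within groups. On simulated arrays of 20804 clusters, 6 against 6, the fit recovered 93.0% of clusters changed by 1 and 99.0% of those changed by 2 (log2), and 2.04% of its calls were false. Simulated clusters varied independently of each other, so these rates do not cover smaller differences or effects that clusters of an array share. The changed clusters were drawn only from those above a set mean level in normal birds, so the rates do not cover dim clusters. Genes and lists were chosen with earlier results of these data known. The naming rule took all measured members, of each pathway list up to 4 genes past the threshold or otherwise the 1 with the smallest p, and the 3 genes nearest to PRKAB2, PRKAG3 and PPP1CB. Of 5 planned within-bird pairs 2 were run, since the other pairs need genes not analysed here. Alternatives were other normalizations, filters on dim clusters, variance models, array weights, single-symbol clusters only, fits without the arrays with W transcripts or with HINTW as a covariate, and leaving out birds.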

Additional observations from a re-analysis of the deposited data

Results flagged for a closer look

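In each of 54 groups of 6 birds (27 named genes in each phenotype), the highest or lowest bird was compared with the nearest other by Dixon's criterion, which flags about 1 group in 20 by chance, and 6 values stood apart. PRKAA2 was at 5.78 in normal bird 3, against 6.55 to 6.69 in the other normal birds. PHKG1 was at 8.55 in affected bird 4, against 9.19 to 9.56 in the other affected birds. CAMKK1, a kinase upstream of AMPK, was at 4.39 in affected bird 4, against 3.70 to 3.94 in the others. PHKA2, the other alpha subunit of phosphorylase kinase, was at 4.28 in the same bird, against 3.27 to 3.59 in the others. UGP2 was at 9.88 in affected bird 1, against 9.24 to 9.46 in the others. PPP1R12A was at 6.48 in normal bird 4, against 6.64 to 6.73 in the others.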

How the results depend on the processing

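The 238 clusters called over the whole table became 384 and 455 with clusters above the lower quartile or the median level, 3 without the arrays with W transcripts, 9 with HINTW as a covariate, 1 with affected bird 4 and normal bird 2 both out, and 1 to 588 over the fits that left out 1 bird (1 without affected bird 6, 588 without affected bird 1). Of the 7 genes 1 was called with all birds. The count was 2 with clusters above the median and with array weights (PPP1CB and PRKAB2), 0 without the arrays with W transcripts, with HINTW as a covariate or with affected bird 4 and normal bird 2 both out, and 0 to 2 when 1 bird was left out. Among the other pathway genes it was 0 in each alternative except 1, CALM2, without affected bird 5. PRKAA2 changed sign, to 0.0042 with array weights, 0.075 without the arrays with W transcripts, 0.087 with the covariate and 0.030 without the 2 birds, and lay between -0.16 and 0.14 in fits leaving out 1 bird. PPP1R12B turned to -0.020 without those arrays and to -0.022 with the covariate, and PPP1R12A to -0.013 after quantile normalization. GYS2, near background, turned to -0.0070 without the 2 birds. PPP1R3D turned to 0.0084 with arrays centred on their median and to 0.13 without the 2 birds, and lay between -0.12 and 0.12 in fits leaving out 1 bird. The other members kept their sign in every alternative run, and both within-bird pairs kept their sign. For genes other than the 7, alternatives were chosen after seeing the data. No paired analysis was possible because birds were numbered within each group in accession order, which matches no bird to another. The cause of these changes was not tested. With 1 array per bird, 6 per group bound the precision.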
